A study of Mus musculus with 15 samples.

Results

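The stage dependence of the p30 effect was measured in 12 of the 15 arrays of the series, those of 4 groups of 3 female C57BL/6 mice each, as the difference between the effect of a mutant Cebpa allele in granulocyte-macrophage progenitors (GMPs) and its effect in the earlier pre-granulocyte-macrophage progenitors (preGMs). The 12 arrays were chosen by their labelled cell population and genotype, and no measured value entered the choice. The preGM groups were labelled cebpa +/+:Mx1Ce and cebpa fl/p30; Mx1Cre, and the GMP groups cebpa fl/+; Mx1Cre and cebpa fl/p30; Mx1Cre. The remaining 3 arrays, GMPs with fl/BRM2 and Mx1Cre, entered the estimate of the spread but not the contrast. All marrow was taken 3 weeks after the conditional knockout. The cells were sorted from cKit-enriched marrow as Lin-, Sca1-, cKit+, CD150- and CD41- cells, with FcgRII and Endoglin absent on preGMs and FcgRII present on GMPs. Mx1Cre drives recombination through an interferon-responsive promoter and acts in many cells of the marrow and outside it, and the share of cells in which the floxed allele was deleted was not analysed here. Each of 3 fl/p30 animals gave both a preGM and a GMP array, numbered alike as replicates 1 to 3, whereas each control array came from an animal of its own. The preGM control had 2 normal Cebpa alleles and the GMP control had 1 normal and 1 floxed allele, so that the stage and the genotype of the control cannot be told apart in any result below.

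C/EBPα, the product of Cebpa, is the transcription factor that drives multipotent and early myeloid cells towards granulocytes and monocytes, and the step from preGM to GMP depends on it. The gene gives a full-length protein and a shorter one, p30, which lacks the amino-terminal transactivation region but still binds DNA. Alleles that make only p30 are a recurrent class of mutation in acute myeloid leukaemia, and committed myeloid progenitors of mice with such alleles can sustain the disease.

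In these sorted populations fewer cells of a type and less RNA per cell cannot be told apart. The sort genes separated the stages in part. Fcgr3, one of the Fc receptor genes behind the sort, lay between 6.12 and 7.18 (log2) in the 6 preGM arrays and between 9.01 and 9.70 in the 6 GMP arrays, and Kit was at least 9.53 in all 12. Fcgr2b, the other Fc receptor gene measured, overlapped between the stages, with 6.44 to 7.45 in preGMs and 7.0 to 9.0007 in GMPs. Eng, which encodes the Endoglin that the gate required to be absent on preGMs, was higher there (7.05 to 7.51) than in GMPs (6.59 to 6.98). Itga2b, which encodes CD41, was called higher in fl/p30 GMPs than in fl/+ GMPs (1.05 ± 0.25, adjusted p = 0.024), although both were sorted as CD41-. The part of these differences in the results was not tested. Cebpa itself, read by 1 probe set, showed no difference of effect between the stages (0.17 ± 0.25, the log2 difference and its standard error; 95% interval -0.37 to 0.71). The position of its probes on the mutant alleles was not determined, so this value does not check the genotypes. The interaction is the p30 effect in GMPs (fl/p30 minus fl/+) minus that in preGMs (fl/p30 minus +/+) on the log2 scale, where 1 is a 2-fold difference; a value above 0 means that a gene's level in p30 cells, set against the control, was higher in GMPs than in preGMs. Calls were made where limma's adjusted p was under 0.05 (Benjamini-Hochberg over 19937 genes).

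Of the 19937 genes, 76 (0.381%) were called in the interaction, 69 above 0 (0.346%) and 7 below 0 (0.0351%). At an unadjusted p under 0.05 there were 3282 (16.5%). The 69 genes had a median interaction of 1.39 and a range of 0.72 to 2.98, and the 7 ran from -1.77 to -0.64. Of the 69, 47 were called higher in fl/p30 GMPs and not called in preGMs, 13 were called lower in fl/p30 preGMs and not called in GMPs, 3 were higher at both stages by unequal amounts, 2 fell in preGMs and rose in GMPs, and 4 were called at neither stage. Of the 7, 6 were called lower in fl/p30 GMPs and 1 was called higher in fl/p30 preGMs. For scale, the p30 effect alone was called in 1193 genes (5.98%) in GMPs, 4.58% of all genes higher and 1.4% lower, and in 316 (1.58%) in preGMs, 0.622% higher and 0.963% lower, and the stage difference was called in 58 of the 1193 and 19 of the 316. A gene called at 1 stage and not the other is therefore not by that shown to differ between them: the remaining 1135 and 297 genes did not pass the test of the difference.

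**Figure D1:**
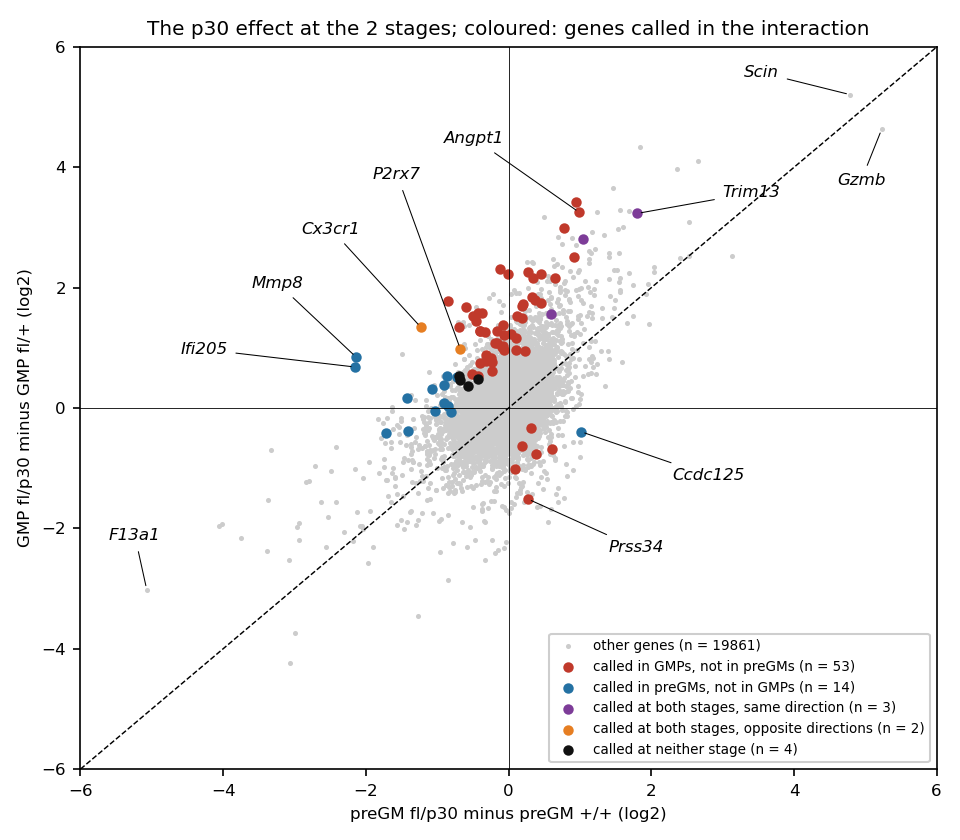
Each point is 1 of 19937 genes, placed by its p30 effect in preGMs (x axis, fl/p30 minus +/+, log2) and in GMPs (y axis, fl/p30 minus fl/+, log2), with equal effects on the dashed line. The 76 coloured genes were called in the interaction; 69 lie above the line and 7 below it, while Scin and Gzmb, which had the largest increases at both stages together, lie near it.

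The number of calls rested on single arrays. Leaving out any of the 3 preGM +/+ arrays left 0 calls in limma (2540, 2547 and 2868 genes at an unadjusted p under 0.05), leaving out GMP fl/+ replicate 1 gave 2195, and leaving out GMP fl/p30 replicate 3 gave 259. The other leave-outs of the 4 groups gave 2 to 21, and without the animal as a block only P2rx7 was called. The spread within groups was uneven, with root mean square SDs of 0.165 for preGM +/+, 0.211 for preGM fl/p30, 0.319 for GMP fl/+ and 0.269 for GMP fl/p30, and the fit assumes 1 spread for all. The GMP fl/+ arrays also differed in small nucleolar RNAs, whose mean over 51 genes, set against all arrays, was -0.42 in replicate 1 and 0.84 and 1.23 in the others. With that level as a covariate 0 genes were called in limma (1816 at an unadjusted p under 0.05). With 1 value per gene, all 76 genes kept their sign in every setting in which they were tested, but the other probe set of Myh9, a myosin heavy chain gene, was at -0.29 against 1.10 for the one used, and the 76 were chosen for a large value in these same arrays.

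**Figure D2:**
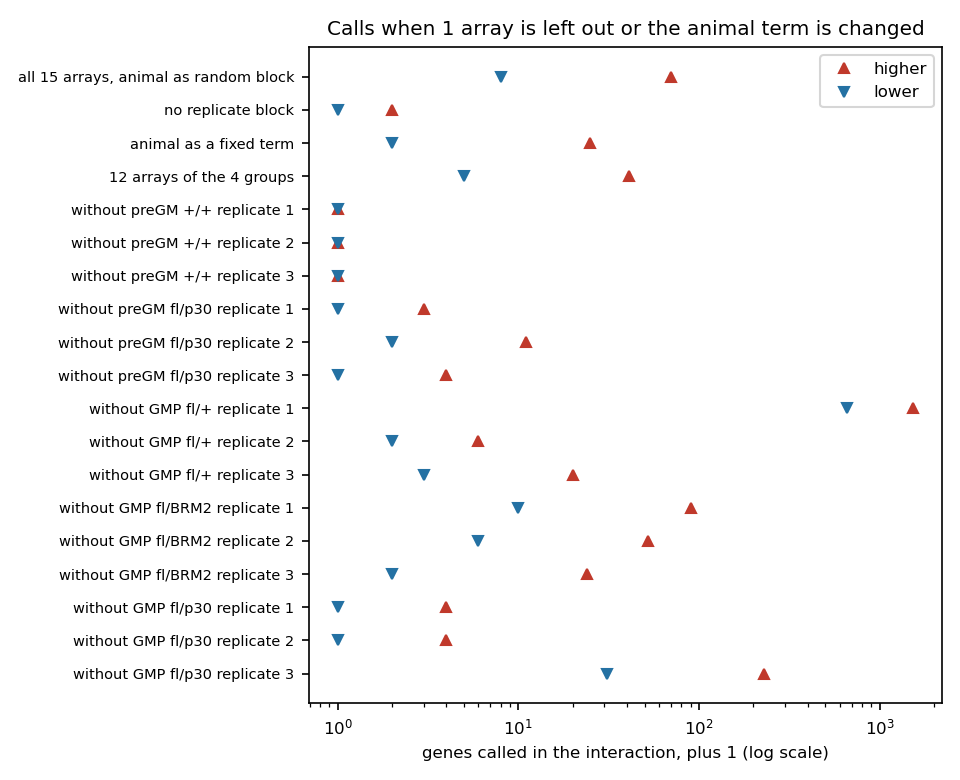
The number of genes called in the interaction plus 1 (x axis, log scale) is shown for the fit to all 15 arrays, for other treatments of the animal and for each array left out (y axis), with upward triangles for genes above 0 and downward triangles for genes below 0. The count runs from 0 without any 1 preGM +/+ array to 2195 without GMP fl/+ replicate 1.

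A pair of genes was called in opposite directions at the 2 stages, and these were the only 2 among all genes tested. P2rx7, an ATP-gated cation channel of immune cells, had values of 7.21, 7.32 and 7.04 in preGM +/+ and 6.396, 6.56 and 6.58 in preGM fl/p30. Among GMPs the fl/+ arrays had 6.63, 6.85 and 6.83 and the fl/p30 arrays 8.07, 7.73 and 7.46. The groups did not overlap at either stage, with the p30 arrays low among preGMs and high among GMPs. The preGM effect was -0.68 ± 0.16 (adjusted p = 0.0458) and the GMP effect 0.98 ± 0.16 (adjusted p = 0.00207), which gave an interaction of 1.66 ± 0.20 with the smallest adjusted p of all genes (0.0207). It kept its call in 9 of the 12 leave-outs, and lost it without any 1 preGM +/+ array, where no gene was called. Cx3cr1, the fractalkine receptor of monocytes, had 7.97, 8.11 and 7.91 in preGM +/+ and 7.30, 6.37 and 6.62 in preGM fl/p30. Among GMPs the values were 7.32, 7.24 and 7.33 in fl/+ and 9.43, 8.45 and 8.05 in fl/p30. The groups were again separate at both stages and the p30 arrays changed sides. Its interaction was 2.57 ± 0.36 (adjusted p = 0.0271), from -1.23 ± 0.28 in preGMs and 1.34 ± 0.28 in GMPs. P2rx4, a second ATP-gated channel, showed a like pattern of values (-0.59 ± 0.32 in preGMs, 1.68 ± 0.32 in GMPs, interaction 2.27 ± 0.42), but its preGM effect did not pass the test.

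The 13 genes called lower in fl/p30 preGMs alone were led by Mmp8, a neutrophil collagenase. Its values were 6.39, 7.51 and 6.09 in preGM +/+ and 4.69, 4.49 and 4.397 in preGM fl/p30. Among GMPs they were 5.51, 4.85 and 5.34 in fl/+ and 7.09, 5.56 and 5.58 in fl/p30. The preGM groups were far apart, while the GMP groups nearly touched and 1 p30 array, replicate 1, stood well above the other 2. Among the preGM controls replicate 2 stood above the others. The 27 measured secondary granule genes, Mmp8 included, lay on average 0.54 above their means over all arrays in that control. The same mean was -0.01 and -0.03 in replicates 1 and 3. The interaction was 2.98 ± 0.49 (adjusted p = 0.0324), the highest of all called genes. Several of these values lie below the array medians (6.03 to 6.23), near background, so the difference may be understated. Ifi205, an interferon-inducible gene of the p200 family, fell by 2.15 ± 0.42 in preGMs, and its GMP groups overlapped (5.25, 4.10 and 4.3965 against 5.05, 4.86 and 5.89).

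More abundant members of the 13 also fell in preGMs, with smaller effects of either sign in GMPs. Lgals1, which encodes the carbohydrate-binding protein galectin-1, had 12.28, 12.22 and 12.19 in preGM +/+ and 11.56, 11.66 and 10.90 in preGM fl/p30. Among GMPs the fl/+ arrays had 12.27, 12.20 and 12.10 and the fl/p30 arrays 12.80, 12.65 and 12.70. The control level was the same at both stages to within 0.2, and the p30 arrays were below it in preGMs and above it in GMPs, where the effect (0.53 ± 0.16, adjusted p = 0.0694) did not pass. Anxa2, a calcium-dependent membrane-binding protein, fell by 1.43 ± 0.22 in preGMs and had an effect of 0.17 ± 0.22 in GMPs. Ccl9, a chemokine made by myeloid cells, fell by 1.07 ± 0.16 in preGMs and had 0.32 ± 0.16 in GMPs. The GMP groups of both genes overlapped. Slc9a7, a sodium-proton exchanger of internal membranes singled out after its values were seen, had a preGM effect of -1.72 ± 0.15 (adjusted p = 5.4e-05). It stood at 7.95, 8.06 and 7.73 in preGM +/+, while the preGM fl/p30 arrays (6.10, 6.26 and 6.21) already lay at the level of the GMP fl/+ arrays (6.25, 6.05 and 6.39).

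**Figure D3:**
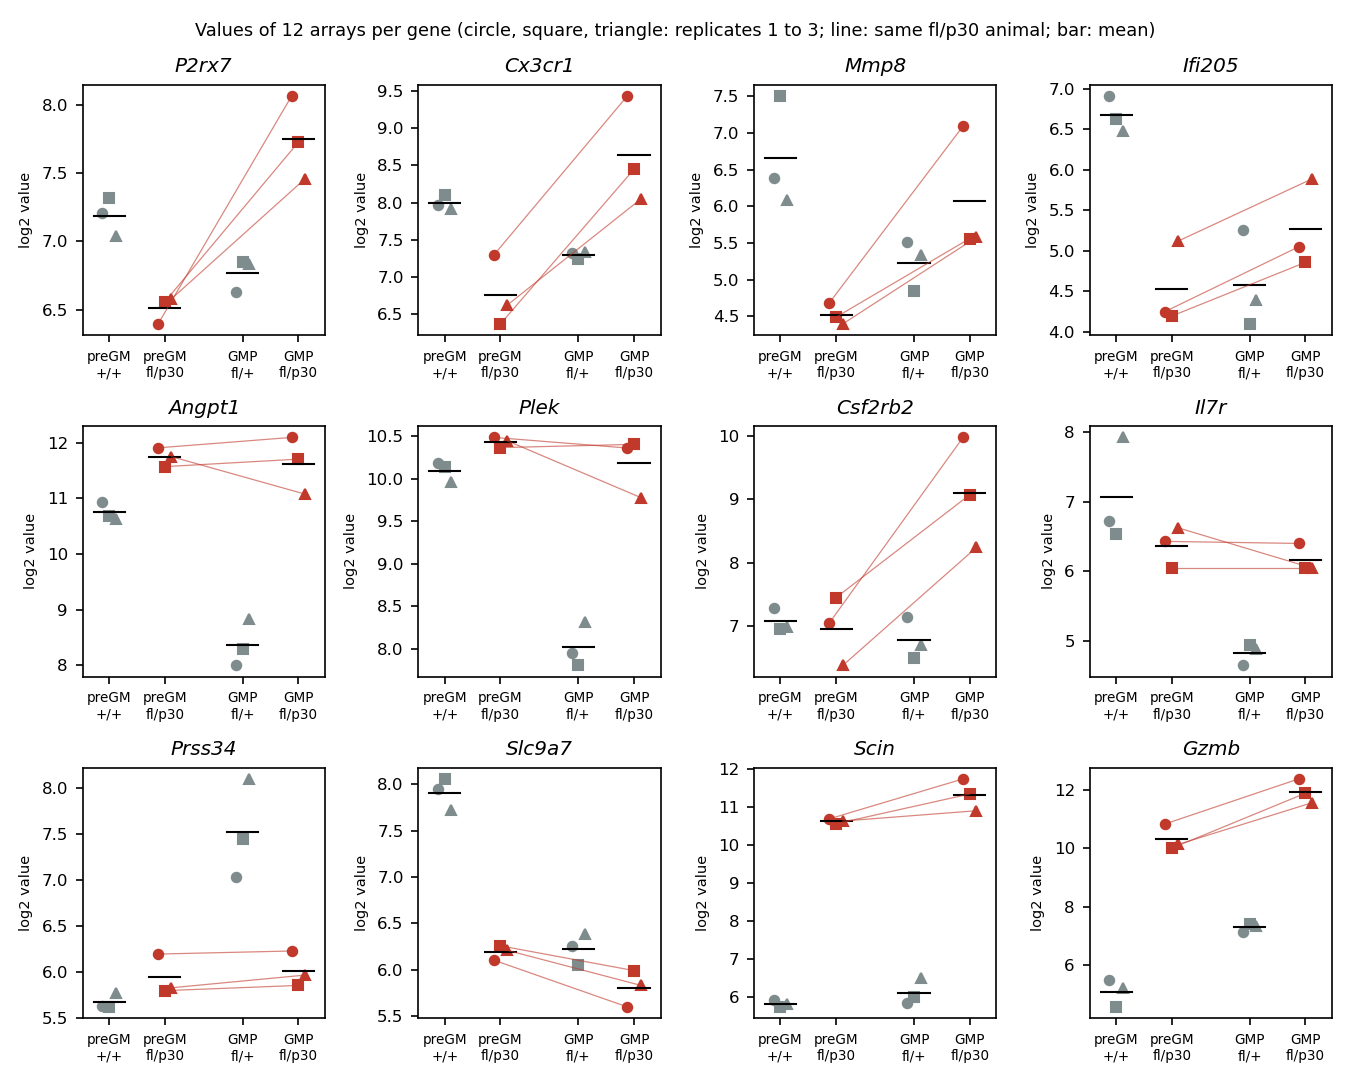
Log2 values of 12 genes in the 12 arrays (y axes; each panel has its own scale), by group (x axes), with controls in grey, fl/p30 in red, the group mean as a bar and a line joining the 2 arrays of each fl/p30 animal. P2rx7 and Cx3cr1 cross from below the control in preGMs to above it in GMPs, Mmp8, Ifi205 and Slc9a7 differ mainly in preGMs, Angpt1, Plek, Csf2rb2, Il7r and Prss34 mainly in GMPs, and Scin and Gzmb alike at both stages.

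The 47 genes called higher in fl/p30 GMPs alone included several receptors and surface proteins. Csf2rb2, the mouse-specific beta chain of the interleukin-3 receptor, had 7.28, 6.96 and 6.98 in preGM +/+ and 7.05, 7.45 and 6.38 in preGM fl/p30. Among GMPs the fl/+ arrays had 7.15, 6.497 and 6.71 and the fl/p30 arrays 9.97, 9.07 and 8.24. All groups but the last lay together, and its interaction was 2.42 ± 0.45 (adjusted p = 0.0376). Gpr183, a receptor for oxysterols that guides immune cells, had the same form, with preGM groups that overlapped and GMP values of 6.62, 5.96 and 6.82 in fl/+ against 9.19, 8.62 and 8.39 in fl/p30 (interaction 2.0 ± 0.31). Ly96, the co-receptor of Tlr4 also called MD-2, rose by 1.77 ± 0.36 in GMPs, with an interaction of 2.62 ± 0.47, and most of its values lay below the array medians. Pecam1, the adhesion molecule CD31, was higher by 1.502 ± 0.16 in GMPs and differed by 0.19 ± 0.16 in preGMs (interaction 1.31 ± 0.20). From the erythroid list Icam4, an adhesion protein of red cell precursors, and Slc4a1, the red cell anion exchanger band 3, had interactions of 1.44 ± 0.27 and 1.19 ± 0.23.

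A further set within the 47 was high in preGMs of both genotypes and low in control GMPs. Angpt1, the ligand of the Tie2 receptor, had 10.93, 10.68 and 10.63 in preGM +/+ and 11.91, 11.57 and 11.75 in preGM fl/p30. Among GMPs the fl/+ arrays had 7.9995, 8.29 and 8.83 and the fl/p30 arrays 12.10, 11.70 and 11.08. Only the 3 GMP fl/+ arrays were low, and the p30 arrays were above their controls at both stages without overlap (preGM effect 0.99 ± 0.26, adjusted p = 0.0851; GMP effect 3.25 ± 0.26; interaction 2.26 ± 0.34, adjusted p = 0.0271). Plek, a protein kinase C substrate of platelets and leukocytes, lay between 9.78 and 10.48 in 9 of the 12 arrays, and the GMP fl/+ arrays had 7.96, 7.81 and 8.32 (interaction 1.81 ± 0.30). Ctla2a, an inhibitor of cysteine proteases, Tjp1, a scaffold of cell junctions, and Tspan13, a tetraspanin, were also called higher in fl/p30 GMPs and not called in preGMs. Their interactions were 2.48 ± 0.44, 2.21 ± 0.39 and 2.24 ± 0.44. The preGM effects were 0.95 ± 0.34, 0.78 ± 0.30 and -0.01 ± 0.34, and the preGM groups of Ctla2a and Tjp1 did not overlap. Satb1, a chromatin organiser of stem and lymphoid cells, had 9.35, 9.46 and 9.35 in GMP fl/+ and 10.39, 10.24 and 9.87 in GMP fl/p30, against 10.42 to 10.99 in the 6 preGM arrays (interaction 1.10 ± 0.21). Trp53inp1, a stress-induced p53 target, rose by 2.52 ± 0.22 in GMPs and differed by 0.92 ± 0.22 in preGMs (adjusted p = 0.0543). Rnase6, a ribonuclease of myeloid cells, Rgl1, an exchange factor for Ral, and Dpysl2, a cytoskeletal protein, completed the 15 highest, with interactions of 2.02, 2.005 and 1.95.

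The lymphoid genes Il7r and Dntt were called as well. Il7r, the interleukin-7 receptor alpha chain, had 6.72, 6.54 and 7.93 in preGM +/+, 6.43, 6.05 and 6.62 in preGM fl/p30, 4.64, 4.94 and 4.88 in GMP fl/+ and 6.401, 6.05 and 6.05 in GMP fl/p30. The preGM groups overlapped, the GMP groups did not, and preGM +/+ replicate 3 stood apart. Of the 6 fl/p30 values 3 were equal, at 6.0461. Dntt, the terminal transferase of lymphoid progenitors, had 10.90, 10.46 and 11.25 in preGM +/+ and 10.15, 10.60 and 10.49 in preGM fl/p30, against 4.83, 4.64 and 4.52 in GMP fl/+ and 5.89, 6.4015 and 6.05 in GMP fl/p30. It fell from preGM to GMP in both genotypes, by 4.30 in the mutant and 6.20 in the control. The interactions were 2.04 ± 0.36 for Il7r and 1.90 ± 0.35 for Dntt. The 19 measured B lymphoid genes lay on average 1.47 above their means over all arrays in preGM +/+ replicate 3. The same mean was 0.11 and 0.14 in replicates 1 and 2. Without that array the interactions were 1.61 and 1.71, and both genes kept an unadjusted p under 0.05 in all 12 leave-outs. Neither was called without it, but no gene of those tested was called without any 1 preGM +/+ array.

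The 7 genes below 0 had one pattern of levels: each was called higher in GMP fl/+ than in preGM +/+, and none was called higher in fl/p30 GMPs than in fl/p30 preGMs. Prss34, a protease of basophils and mast cells, had 5.63, 5.62 and 5.77 in preGM +/+ and 6.20, 5.80 and 5.83 in preGM fl/p30. Among GMPs the fl/+ arrays had 7.03, 7.45 and 8.10 and the fl/p30 arrays 6.23, 5.85 and 5.97. Only the GMP controls were clearly above background, and the interaction was -1.77 ± 0.26 (adjusted p = 0.0271). Neu1, the lysosomal sialidase (-1.14 ± 0.23), Slc28a2, a nucleoside transporter (-1.30 ± 0.22), Map3k15, a stress kinase (-1.11 ± 0.20), Lpl, lipoprotein lipase (-0.82 ± 0.14), and Chst7, a sulfotransferase (-0.64 ± 0.12), were likewise lower in fl/p30 GMPs. Ccdc125 differed in the other way, by rising in fl/p30 preGMs (1.01 ± 0.19, interaction -1.41 ± 0.25), with no call in GMPs (-0.39 ± 0.19).

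The genes called higher at both stages and also called in the interaction were Trim13, a ubiquitin ligase, Dpp4, the surface peptidase CD26, and Ppp3cc, a catalytic subunit of calcineurin. Trim13 rose by 1.80 in preGMs and by 3.23 in GMPs, Dpp4 by 1.04 and 2.81, and Ppp3cc by 0.59 and 1.57. The 4 genes called at neither stage (Camk1d, Cldnd1, Crim1 and Rnf157) had interactions of 0.91 to 1.22, made of preGM differences of -0.69 to -0.43 and GMP differences of 0.36 to 0.53.

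C/EBP proteins bind palindrome-like sites, and the promoters of the called genes were searched for the core TTGCNNAA on either strand (its reverse complement is TTNNGCAA). RefSeq promoter windows (GRCm38.p6; 250 bases before to 50 after a start) were matched for 15562 of the genes tested, of which 11.3% held the core, and for 61 of the 76 called genes, of which 9 (14.8%) held it. The shares were 14.3% (8 of 56) among genes above 0 and 20.0% (1 of 5) among genes below 0. These shares are descriptions, and a match is not a site in use. Shown are the 250 bases before the start for the 5 genes with a match that are described above, 5′ to 3′ in the direction of transcription, with the matching bases in capitals.
Mmp8, chr9:7558179-7558428, plus strand: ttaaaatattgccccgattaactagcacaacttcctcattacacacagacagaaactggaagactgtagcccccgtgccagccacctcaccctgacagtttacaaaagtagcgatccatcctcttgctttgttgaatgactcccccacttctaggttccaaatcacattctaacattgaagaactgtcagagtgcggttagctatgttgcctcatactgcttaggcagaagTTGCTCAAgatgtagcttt
Il7r, chr15:9529877-9530126, minus strand: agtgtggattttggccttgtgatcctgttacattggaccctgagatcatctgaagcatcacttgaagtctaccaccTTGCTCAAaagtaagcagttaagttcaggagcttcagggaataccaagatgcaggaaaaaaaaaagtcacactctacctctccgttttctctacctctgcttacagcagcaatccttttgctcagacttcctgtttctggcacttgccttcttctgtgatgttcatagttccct
Gpr183, chr14:121965194-121965443, minus strand: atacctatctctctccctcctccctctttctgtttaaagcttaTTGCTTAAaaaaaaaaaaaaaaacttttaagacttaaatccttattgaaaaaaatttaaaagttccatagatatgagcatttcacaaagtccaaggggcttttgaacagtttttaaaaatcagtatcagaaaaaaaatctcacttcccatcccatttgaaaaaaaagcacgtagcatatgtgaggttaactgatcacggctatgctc
Rnase6, chr14:51128787-51129036, plus strand: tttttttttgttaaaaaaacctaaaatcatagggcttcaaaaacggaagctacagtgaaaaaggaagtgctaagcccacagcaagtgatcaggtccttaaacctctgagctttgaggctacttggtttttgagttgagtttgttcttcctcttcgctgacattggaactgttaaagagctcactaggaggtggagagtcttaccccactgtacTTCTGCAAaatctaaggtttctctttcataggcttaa
Chst7, chrX:20059320-20059569, plus strand: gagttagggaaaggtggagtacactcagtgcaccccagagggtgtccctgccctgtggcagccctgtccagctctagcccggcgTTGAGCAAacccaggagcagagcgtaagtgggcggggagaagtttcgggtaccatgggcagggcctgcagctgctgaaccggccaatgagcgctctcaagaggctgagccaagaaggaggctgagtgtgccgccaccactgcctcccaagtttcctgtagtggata
The match began 19 bases before the start in Mmp8, 174 in Il7r, 207 in Gpr183, 37 in Rnase6 and 166 in Chst7. It lay within 50 bases of the start in Mmp8 and Rnase6, and the 5 genes include one called from its preGM effect, 3 higher in mutant GMPs and 1 lower.

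The same contrast can be read as 2 steps from preGM to GMP, one in p30 cells within each animal and one in controls. Of the 69 genes above 0, all had a control step below 0 and 51 were called lower in GMP fl/+ than in preGM +/+, against 6.02% of all genes; 0 were called higher, against 4.19%. In p30 cells the step was below 0 in 22 of the 69, with 4 called lower (1.58% of all genes) and 23 called higher (1.84%). The median step of the 69 was -1.01 in controls and 0.35 in p30 cells. The steps of the 3 animals all lay above the 9 differences between single GMP fl/+ and preGM +/+ arrays in each of the 69, and below them in each of the 7; among all genes the shares were 5.41% and 6.08%, and the genes were chosen by this same contrast. For Cx3cr1 the 3 animals had steps of 2.13, 2.07 and 1.42, and the control differences ran from -0.87 to -0.57. For Angpt1 the animals had 0.19, 0.13 and -0.67, against -2.93 to -1.80. For Prss34 they had 0.03, 0.06 and 0.14, against 1.25 to 2.48. Genes above 0 thus included some that were higher in p30 GMPs than in p30 preGMs, such as Cx3cr1 and Csf2rb2, and some with a p30 step near 0 where the control fell, such as Angpt1 and Plek. The 4 genes called lower in both steps, Dntt, Rhobtb3, Cobll1 and Ppp3cc, fell less in p30 cells.

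**Figure D4:**
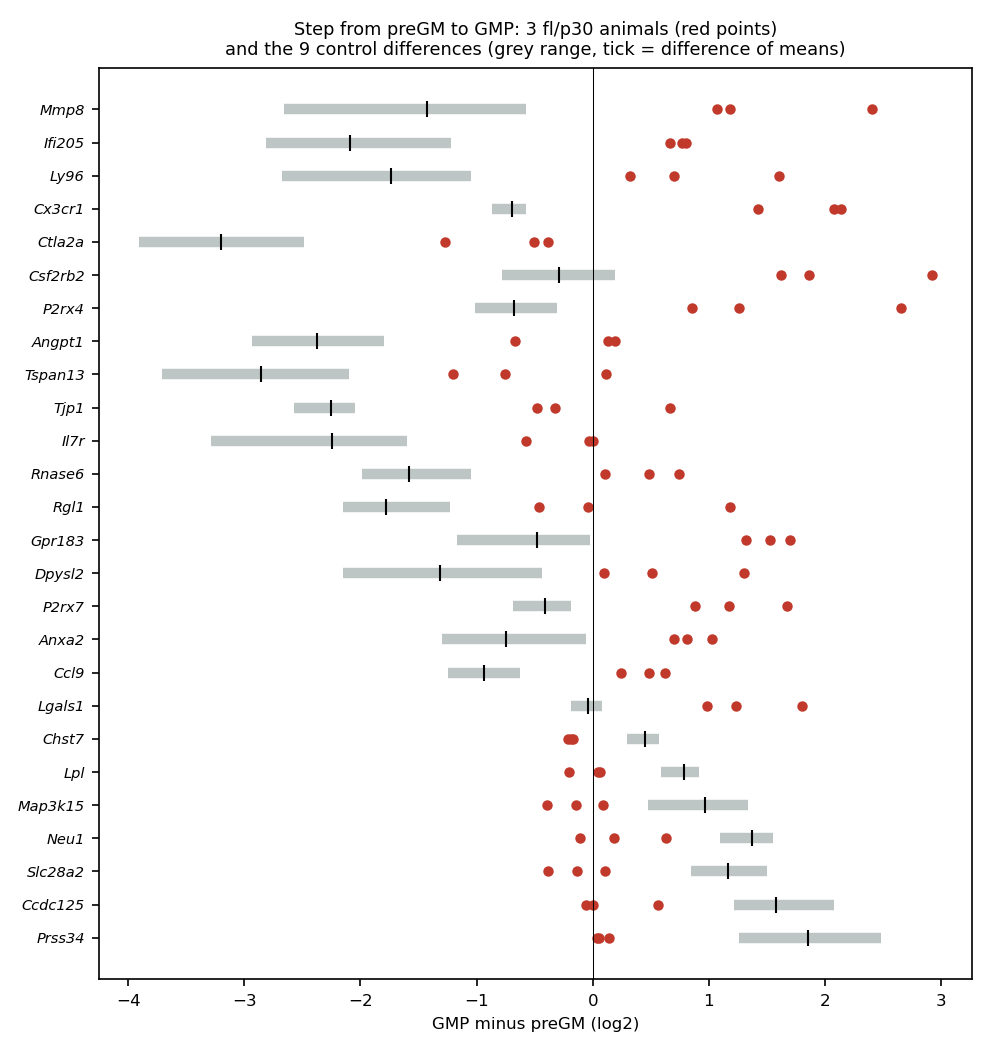
For the 26 called genes at the ends of the ranking or described by stage (y axis), the difference GMP minus preGM (x axis, log2) is shown for each fl/p30 animal (red points) and for the 9 pairs of control arrays (grey range, with the difference of means as a tick). The red points lie outside the grey range in every gene, to the right for the genes above 0 and to the left for the last 7.

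Scin and Gzmb, which had the largest increases at both stages together, were not called in the interaction. Called genes also had large effects in GMPs, such as Ctla2a (3.425), Angpt1 (3.25) and Trim13 (3.23). There were 128 genes called in the same direction at both stages, 85 higher and 43 lower. Of these 128, 3 were called in the interaction, against 0.381% of all genes, and 40 had an unadjusted p under 0.05, against 16.5%. Both shares were above those of all genes, but the 128 were chosen by the 2 effects that make up the interaction. The effect was larger in GMPs than in preGMs in 63 of the 85 higher genes and in 11 of the 43 lower genes. A larger effect in GMPs is an interaction above 0 for a higher gene and below 0 for a lower gene. Both counts thus lean to interactions above 0 (medians 0.32 and 0.13), against 8702 of all 19937 genes above 0. The higher and lower genes share the same control arrays. The genes named next, higher and then lower at both stages, were ranked by the smaller of their 2 effects. That ranking favours genes with like effects at both stages, so their intervals do not show that large effects in general are alike. Scin, an actin-severing protein, stood between 5.75 and 6.52 in the 6 control arrays, between 10.6 and 10.7 in preGM fl/p30 and between 10.9 and 11.7 in GMP fl/p30. Its effects were 4.79 in preGMs and 5.21 in GMPs, and the 95% interval of their difference was -0.23 to 1.06. Gzmb, the cytotoxic protease granzyme B, rose by 5.23 in preGMs and 4.63 in GMPs (interval -1.33 to 0.14). For Sh2d1b1, an adapter of natural killer cells, the interval was -0.51 to 0.69, for Olfr417 -0.79 to 0.79, for Zfp711 -1.35 to 0.14 and for Cpa3, the mast cell carboxypeptidase, -0.39 to 1.51. Tox, a nuclear factor of lymphoid development, and St8sia6, a sialyltransferase, had intervals above 0 (0.62 to 2.27 and 0.57 to 2.65) without passing limma's adjusted test (adjusted p = 0.109 and 0.148).

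Among genes lower at both stages, F13a1, the coagulation factor XIII subunit made by monocytes, had an effect of -5.07 ± 0.53 in preGMs and had an effect of -3.02 ± 0.53 in GMPs (adjusted p = 0.0041). Its interaction was 2.05 with an interval above 0 (0.56 to 3.54), without passing limma's adjusted test (adjusted p = 0.185). The GMP fl/p30 values were 6.01, 6.31 and 8.35, so that replicate 3 stood apart, and without that array the interaction was 1.37. The unadjusted p was under 0.05 in all 12 leave-outs. For Il6st, the shared receptor chain gp130, the interval was -0.72 to 0.96, for Hdc, which makes histamine, -1.06 to 1.02, for Lonrf3 -0.69 to 0.73, for Stox2 -0.63 to 0.83 and for Cask -0.68 to 1.18. Ngp, a neutrophil granule protein (-0.84 to 2.85), and Hk3, the myeloid hexokinase (-0.65 to 2.09), had wide intervals. Over all shared genes the median half-width of the interval was 0.61 for the 85 higher and 0.68 for the 43 lower genes.

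Described by gene group, 25 lists held 558 measured entries, and the median interaction over all genes was -0.05. As only 0.381% of all genes were called, a list without a call is not thereby set apart from all genes. The monocyte and dendritic cell list had the highest median, 0.84, with 19 of 25 members above 0. One member, Cx3cr1, was called, and 8 had an unadjusted p under 0.05 above 0 and 2 below 0, against 9.16% and 7.3% of all genes. In preGMs 7 of the 25 were called lower in p30 cells, against 0.963% of all genes. In GMPs 4 were called lower and 1 higher, against 1.4% and 4.58%. The list's level in the GMP fl/p30 arrays was -0.55, -0.26 and 0.54, and without the third array the median was 0.27. The secondary granule list (27 genes, median -0.09) was called for Mmp8 alone, and no primary granule gene was called (22 genes, median 0.14), with Fcnb, a ficolin of granulocyte precursors, at -2.21 (adjusted p = 0.109).

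Stem and multipotent progenitor genes had a median of 0.48 (34 genes, Angpt1 and Satb1 called), with 15 above 0 and 3 below 0 at an unadjusted p under 0.05, against 9.16% and 7.3% of all genes, and erythroid genes 0.49 (28 genes, Icam4 and Slc4a1 called). In GMPs 11 erythroid genes were called higher in p30 cells, against 4.58% of all genes, and in preGMs 0, against 0.622%; the difference between these counts was not tested. For myeloid cytokine receptors the median was 0.36 (24 genes, Csf2rb2 and Il7r called). The megakaryocyte list was called for Plek, the T and NK cell list for Ctla2a, the stroma and endothelium list for Pecam1, the ligand list for Angpt1 and Ccl9, the p53 list for Trp53inp1 and the mast, basophil and eosinophil list for Prss34, each otherwise without calls. Of the 27 transcription factors of myeloid fate none was called, with Runx1 at 1.09 ± 0.26 (adjusted p = 0.0797) and Id2 at 1.99 ± 0.56 (adjusted p = 0.128). The C/EBP family, with 6 measured genes, had the lowest median, -0.38, with no call; Cebpb was at -0.54 ± 0.17 and Ddit3, the stress-induced CHOP, at -0.64 ± 0.20.

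Cholesterol synthesis had a median of 0.72 with all 19 genes above 0, against 8702 of all 19937, and 9 of them at an unadjusted p under 0.05, against 9.16%. None was called in limma, with Srebf2, the regulator of the pathway, at 0.93 ± 0.23 (adjusted p = 0.085) and Hmgcs1 at 1.04 ± 0.26. GMP fl/+ replicates 1 to 3 had mean levels of 0.24, -0.89 and -0.44 for these genes, and with the first of these as the sole GMP control the median was 0.05. Respiratory chain genes (26, median 0.33) had levels of 0.31, -0.49 and -0.32 there, and their median was -0.11 with the first alone. Housekeeping genes lay at 0.19, -0.26 and -0.21, and the part of these arrays' differences in the 2 medians was not tested. In the G2 and M phase list 0 of 27 genes were called. The median was 0.07 with 19 of the 27 above 0, while Bub1 and Cenpe, the 2 with the smallest p, were at -0.53 each. None of the 27 had an unadjusted p under 0.05, against 9.16% of all genes above 0 and 7.3% below 0. The list's level was -0.96 in GMP fl/p30 replicate 1, and without that array Bub1 was at -0.13 and Cenpe at -0.19. For E2F and S phase (35 genes) the median was 0.28 with 0 calls. At an unadjusted p under 0.05 there were 5 above 0 and 0 below 0, against 9.16% and 7.3% of all genes. Rrm1 at 0.84 and E2f8 at 0.53 were among the 5. In the interferon list (25 genes) Oas2, an antiviral enzyme, stood at -0.90 and Ifi27l2a at 0.51, with no call. No call was made among mature macrophage genes (Vcam1 -1.27, or -0.82 without GMP fl/+ replicate 1, and Cd163 0.43), Myc and ribosome biogenesis genes (Rrp9 0.60, Rcl1 0.51), or immediate early and heat shock genes (Fosl2 0.39, Egr1 0.64). The immediate early and heat shock list had a median of -0.15 with 10 of 25 genes above 0, so Fosl2 and Egr1 ran against most of it.

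**Figure D5:**
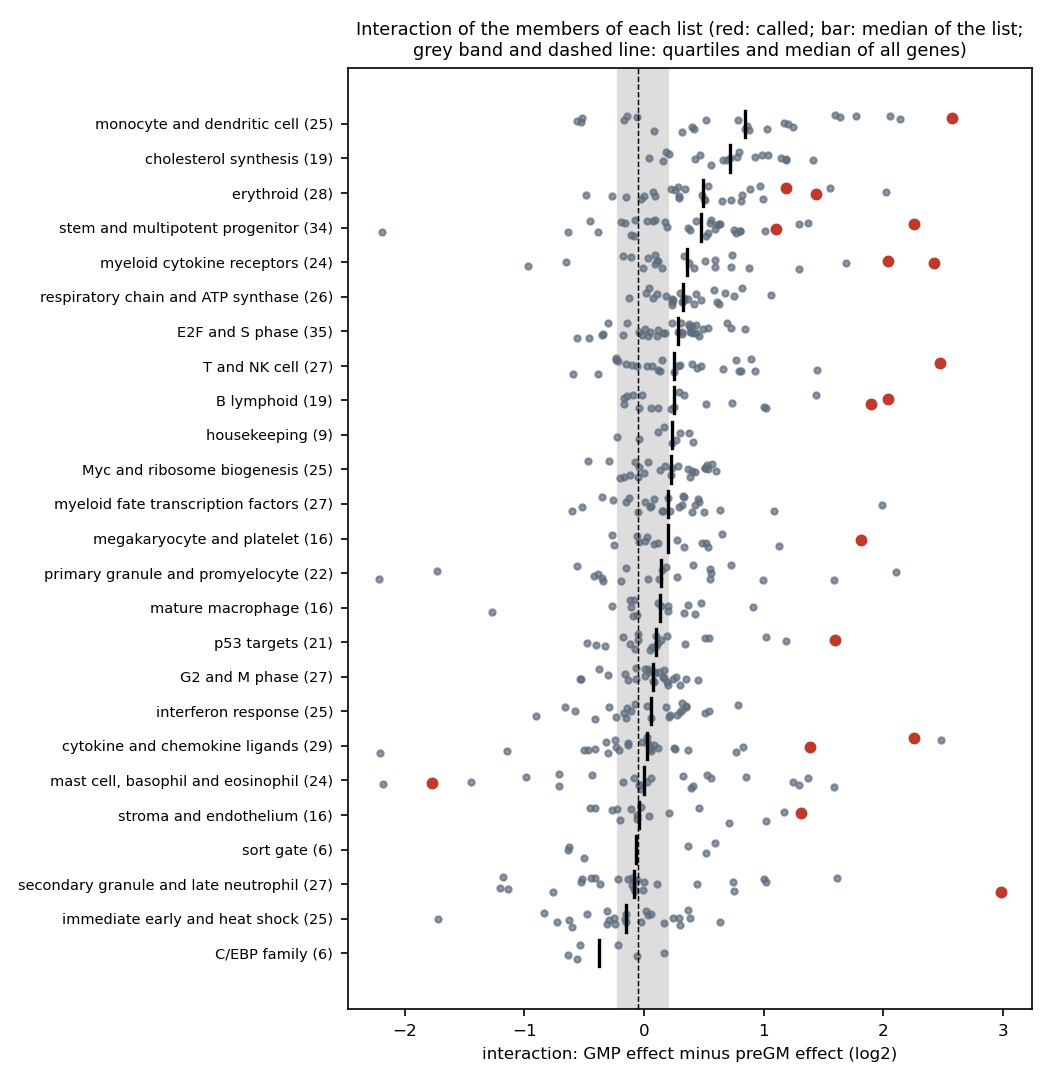
Interaction of each member (x axis, log2) of 25 gene lists (y axis, with the number measured), called members in red, the list median as a bar, and the quartiles and median of all genes as a grey band and dashed line. The monocyte and dendritic cell list has the highest median (0.84) and the C/EBP family the lowest (-0.38), and single called genes lie far from their list's median.

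The GMP fl/BRM2 arrays carry a different Cebpa mutation and were not part of the contrast. The 69 genes averaged 7.15, 6.90 and 7.08 in GMP fl/+, 8.47, 8.33 and 8.05 in GMP fl/p30, and 7.84, 8.28 and 8.09 in GMP fl/BRM2. The 7 genes averaged 7.31, 7.41 and 7.43 in fl/+, 6.53, 6.53 and 6.81 in fl/p30, and 6.65, 6.45 and 6.53 in fl/BRM2. Both mutants share the fl/+ controls, so that these values stand side by side without a test.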

How the data were processed

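The 15 arrays were Affymetrix Mouse Gene 1.0 ST arrays of amplified, biotin-labelled cDNA. The deposited values are on a log2 scale, made by the authors with affy and RMA (background correction, quantile normalization, probe summary) per the submitters' processing notes; the sources used here give no versions or filters. An array has no read depth, and precision rests on the number of arrays; array medians lay between 6.03 and 6.23. Of 34760 probe sets, 21640 had 1 gene symbol in the platform annotation, 1321 several and 11799 none; 19937 genes were tested, each by its probe set with the highest mean over the 15 arrays where it had more than 1 (954 genes). No dim probe set was left out.

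Group means of all 5 groups were fitted with limma 3.58.1 (R 4.3.3), eBayes without trend, with the animal as a random block (duplicateCorrelation, consensus 0.304), 10 residual and 4.25 prior degrees of freedom; ± is the standard error. The animal numbers in the labels give the pairing: deviations of same-animal fl/p30 arrays correlated at 0.334, 0.32 and 0.116, with 1 other pairing higher than the last (0.154). P-values measure the spread between arrays within groups, pooled over all 5 groups, with the block allowing for the shared fl/p30 animals. Tested on simulated data, the interaction test recovered 58% of genes changed by 1, 95% by 2 and 100% by 3 (log2), with 15 false calls of 189. The simulation gave each gene the same spread in every group and no differences shared by the genes of an array. In the data the root mean square SDs of the groups ran from 0.165 to 0.319. The simulation therefore does not show the share of false calls among the genes called here.

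Named were Cebpa, the sort gate, the 15 highest and 15 lowest called genes, at most 4 called genes per list (or the 2 of smallest p), the 8 highest and 8 lowest called at both stages, and calls at 1 stage or in opposite directions; Slc9a7, the genes of the 2 smallest groups of calls and the genes whose promoters matched were named otherwise. The members and lists were chosen with earlier results of these data known. Alternatives changed the block, the arrays, the weights, the spread model, the centring and the choice of probe sets.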

Additional observations from a re-analysis of the deposited data

Results flagged for a closer look

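Listed here are genes described above that were called by the test of the difference itself (limma's interaction, adjusted over 19937 genes). They were picked by that test, so the list is not a second check of it. No call was left without any 1 preGM +/+ array, and the genotype of the control differed between the stages. The log2 interaction was above 0 for Mmp8 (2.98), Ifi205 (2.83), Ly96 (2.62), Cx3cr1 (2.57), Ctla2a (2.48), Csf2rb2 (2.42), P2rx4 (2.27), Angpt1 (2.26), Tspan13 (2.24), Tjp1 (2.21), Il7r (2.04), Rnase6 (2.02), Rgl1 (2.005), Gpr183 (2.0), Dpysl2 (1.95), Dntt (1.90), Plek (1.81), P2rx7 (1.66), Anxa2 (1.59), Trp53inp1 (1.59), Icam4 (1.44), Ccl9 (1.39), Lgals1 (1.38), Pecam1 (1.31), Slc4a1 (1.19) and Satb1 (1.10). It was below 0 for Prss34 (-1.77), Ccdc125 (-1.41), Slc28a2 (-1.30), Neu1 (-1.14), Map3k15 (-1.11), Lpl (-0.82) and Chst7 (-0.64).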

How the results depend on the processing

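Against 76 genes called as stage dependent, the number called over all genes was 1 without the replicate block, 25 with the animal as a fixed term, 44 with the 12 arrays of the 4 groups alone, 3 over all probe sets and 2707 with array weights. It ranged from 0 to 2195 when 1 array was left out. For the effect in GMPs (1193 genes) the count was 4112 with weights, 485 at a log2 difference of at least 1, and 561 to 3065 with 1 array left out. For the effect in preGMs (316 genes) it was 1306 with weights, 156 over all probe sets, 166 at a difference of at least 1, and 90 to 446 with 1 array left out. The block moved these last counts to 1209 and 334 only. In 3 settings chosen after seeing the data, the 3 counts were 3, 305 and 523 with GMP fl/+ replicate 1 as the sole GMP control, 2, 499 and 167 without fl/p30 replicate 1 at both stages, and 0, 195 and 318 with the small nucleolar RNA level as a covariate. The cause of these shifts was not tested.

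Genes near 0 changed sign. With array weights Hdc was at 0.0605, Lonrf3 at -0.105 and Olfr417 at 0.24, and with arrays centred on their medians Hdc was at 0.0146 and Olfr417 at 0.035. With 1 array left out, Cask ranged from -0.17 to 0.63, Hdc from -0.61 to 0.40, Hk3 from -0.0247 to 1.43, Il6st from -0.22 to 0.49, Lonrf3 from -0.35 to 0.24, Olfr417 from -0.31 to 0.35, Sh2d1b1 from -0.0848 to 0.29 and Stox2 from -0.17 to 0.31. With GMP fl/+ replicate 1 alone, Cebpa was at -0.15, Cpa3 at -0.12, Lonrf3 at -0.41 and Sh2d1b1 at -0.30. Without fl/p30 replicate 1 at both stages, Hdc was at 0.34 and Olfr417 at 0.0145. With the covariate, Cpa3 was at -0.0565, Hdc at 0.27 and Sh2d1b1 at -0.20. Signals near the array medians limit the dim genes.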
